A study of Homo sapiens with 27 samples.

Results

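Total RNA was set against the nuclear and cytoplasmic/ER fractions of the same cells in U2OS, a human osteosarcoma line. Of the 27 RNA Frac-Seq libraries, 9 were total RNA, 9 were nuclear and 9 were cytoplasmic/ER. Each culture gave 1 library of each kind. A portion of the harvested cells was kept whole as the total sample, and the others were lysed with detergent, which leaves nuclei in the pellet and releases the cytosol and the contents of the ER. There were 9 cultures, 3 with a scrambled shRNA (Control) and 3 each with the shRNAs TPR A and TPR D, which target TPR, a protein of the nuclear pore basket. All shRNAs were delivered by lentivirus with puromycin selection, so the Control cells had been infected and selected too. All libraries were made from poly(A)+ RNA of 1 cell line. Each total library was compared with the mean of both fractions of its own culture, and the comparison asked which RNAs of whole cells neither fraction recovered, and the reverse. It covered the 14611 of 34464 genes with a mean above 1 FPKM that lie outside the mitochondrial genome.

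If the nuclear and the cytoplasmic/ER fractions together hold the RNA of the cell, the total level of each RNA is a mixture of its levels in both and lies between them. Some RNAs are known to be tightly held in the nucleus. MALAT1 gathers in nuclear speckles, NEAT1 builds paraspeckles, and mRNAs with retained introns are kept from export. Other RNAs are held in place in the cytoplasm, at the ER for secreted and membrane proteins, at centrosomes, at protrusions or inside mitochondria. An RNA above both fractions held a larger share of the total library than of either fraction, and an RNA below both a smaller one. Whether such a difference arose in the fractions or in the total libraries was not tested. FPKM are shares of a library, so these statements are relative to the other RNAs of the same library, and fewer cells of a kind cannot be told apart from less RNA per cell.

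The steps between the lowest values put the depth at 40.6 to 87.3 M reads for the total libraries (median 60.2), 44.6 to 60.2 M for the nuclear (median 49.1) and 31.4 to 47.5 M for the cytoplasmic/ER libraries (median 39.2). The mesenchymal markers VIM (854 to 2500 FPKM over the total libraries), SPARC (269 to 560) and COL1A1 (20.6 to 58.5) were high, RUNX2 was at 7.85 to 24.5 FPKM, and PTPRC (0.228 to 1.22) and CDH1 (0.267 to 1.67) were low. EPCAM, a marker of epithelial cells, was at 2.96 to 6.87 FPKM. The target of the shRNAs, TPR, was at 25.3, 25.7 and 28.2 FPKM in the total libraries of Control cells, at 3.44, 4.36 and 4.70 with TPR A and at 3.23, 4.74 and 6.01 with TPR D.

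Libraries of 1 culture went against their labels. Across genes, the library labelled Control total replicate 2 correlated at 0.972 with averaged nuclear RNA and at 0.940 with averaged total RNA of the remaining cultures. The library labelled Control nuclear replicate 2 correlated at 0.976 with averaged total RNA and at 0.944 with averaged nuclear RNA. mRNAs of the mitochondrial genome made up 0.738% of FPKM in the first and 21.8% in the second, against 15.8% to 24.7% in the other 8 total libraries and 0.774% to 2.42% in the other 8 nuclear libraries. The labels were kept as given. Counts over all genes and over gene lists are given with and without Control replicate 2, and so are the named genes whose call changes without it. Replicate 1 has labels of a different form from replicates 2 and 3, and values within these sets of cultures are given as well.

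Over all 9 cultures, 2898 genes (19.8%) were higher in total RNA than in the mean of the fractions and 3781 (25.9%) were lower (limma, adjusted p under 0.05). The log2 difference, total minus mean of the fractions, had a median of -0.06 over all genes and lay between -0.41 and 0.31 for the middle of the genes (quartiles), with a median standard error of 0.15. Of the genes called, 455 were more than 2-fold higher and 140 more than 2-fold lower in total RNA. Without Control replicate 2 the counts were 3974 (27.2%) and 4984 (34.1%), with 2873 of the 2898 and 3717 of the 3781 genes among them. Within the replicate 1 cultures 305 genes were higher and 59 lower, and within replicates 2 and 3 the counts were 1772 and 2260. In single cultures, the correlation of total RNA with the mean of the fractions across genes was 0.913 to 0.970.

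No gene was above both fractions (0.0%) or below both (0.0%) over all 9 cultures (limma, adjusted p under 0.05 against each fraction), although 1513 genes were above and 1305 below both at an unadjusted p under 0.05. The lowest adjusted p for total against nuclear RNA was 0.0698. Without Control replicate 2, 2273 genes (15.6%) were above both fractions and 2218 (15.2%) were below both. In the 8 cultures other than Control replicate 2, the total was above both fractions in every culture for 1319 genes and below both in every culture for 1432. These were 9.03% and 9.80% of all genes. Control replicate 2 had 30 of those 1319 genes above both fractions and 25 of those 1432 below both, against 29.3% and 28.2% of all genes above and below both in that culture. The genes described next were taken from the fit without Control replicate 2, and the libraries of that culture are given for those described at most length.

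The RNAs that exceeded both fractions most included well-known nuclear lncRNAs. MALAT1 (ENSG00000251562.3, chromosome 11 of GRCh37, 65265111 to 65275544, plus strand), the lncRNA of nuclear speckles, was at 71.6 to 207 FPKM (median 126) in 8 total libraries, at 16.3 to 40.1 (median 22.5) in their nuclear libraries and at 2.27 to 16.1 (median 8.56) in their cytoplasmic/ER libraries. The lowest of these 8 total libraries lay above the highest of the nuclear ones, so the groups did not overlap. Of the Control replicate 2 libraries, that labelled total held 16.3 FPKM, the library labelled nuclear 83.6 and the cytoplasmic/ER library 9.05. MALAT1 was 4.87-fold higher in total than in nuclear RNA (log2 difference 2.29, standard error 0.20, limma adjusted p = 0.000127) and 16.8-fold higher than in cytoplasmic/ER RNA (log2 difference 4.07, standard error 0.35, adjusted p = 8.7e-05). Against the mean of the fractions over all 9 cultures, its log2 difference was 2.44 (standard error 0.39, adjusted p = 0.00313).

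**Figure D1:**
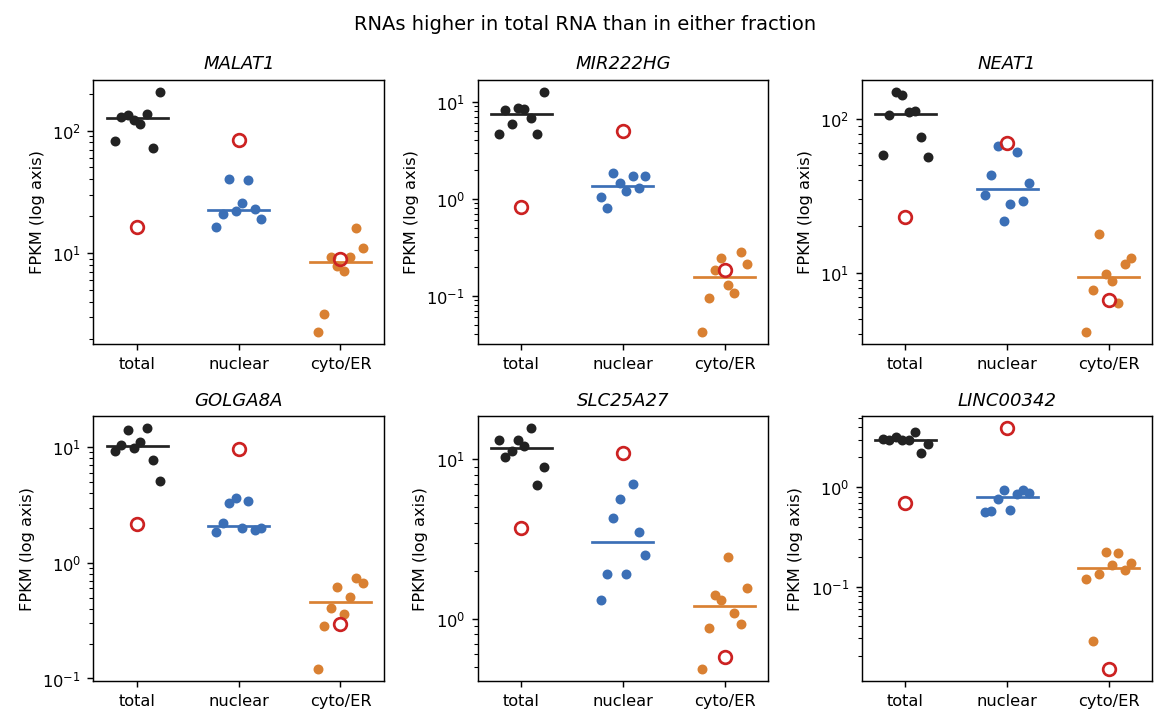
FPKM (log axis) of 6 RNAs in the total, nuclear and cytoplasmic/ER libraries. Filled points are the 8 cultures other than Control replicate 2, bars are their medians and red circles are Control replicate 2. For MALAT1 the 8 total libraries (71.6 to 207 FPKM) lie above the 8 nuclear ones (16.3 to 40.1 FPKM), while the red circles stand the other way round.

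MIR222HG (ENSG00000270069.1, chromosome X, 45604638 to 45629677, minus strand), the primary transcript of the microRNAs miR-221 and miR-222, showed the largest smaller-of-both difference among lncRNAs. Its total level was 4.61 to 12.7 FPKM (median 7.47), its nuclear level 0.800 to 1.85 (median 1.37) and its cytoplasmic/ER level 0.0422 to 0.283 (median 0.158). None of these 8 total libraries came down to a nuclear one. The total was 5.08-fold above the nuclear and 29.8-fold above the cytoplasmic/ER level (limma adjusted p = 0.000105 and 1.9e-05). The values of Control replicate 2 were 0.822 FPKM in total, 5.04 in nuclear and 0.186 in cytoplasmic/ER RNA. MIR222HG overlaps ENSG00000269902, another annotated gene on its strand.

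NEAT1 (chromosome 11, 65190245 to 65213011, plus strand), the scaffold of paraspeckles, was at 56.8 to 150 FPKM in total, 21.7 to 67.1 in nuclear and 4.11 to 17.9 in cytoplasmic/ER RNA. The ranges of total and nuclear RNA overlapped between cultures, but in 8 of 9 cultures the total was the highest of its own 3 libraries. It was 2.66-fold above the nuclear level (limma adjusted p = 0.000154). The libraries of Control replicate 2 held 23 FPKM (labelled total), 69.7 (labelled nuclear) and 6.70 (cytoplasmic/ER). TUG1, a lncRNA that is found in the nucleus and the cytoplasm, was 1.80-fold above the nuclear and 2.95-fold above the cytoplasmic/ER level (adjusted p = 0.00778 and 0.00173). FTX, a lncRNA of the X-inactivation centre, was above both as well (log2 differences 1.10 and 0.83, adjusted p = 0.00131 and 0.00158). PVT1, the most abundant of the list, lay between the fractions in 8 of 9 cultures, 0.63 above the nuclear and 0.54 below the cytoplasmic/ER level on the log2 scale. The list was of lncRNAs known as nuclear, but not all were so in these libraries. At the median of 8 cultures, PVT1 was at 102 FPKM in nuclear and 225 in cytoplasmic/ER RNA, and FTX at 2.03 and 2.51. Of the 5 listed with a mean above 1 FPKM, 4 were higher in total RNA than in the mean of the fractions and 0 lower. Their median log2 difference was 0.94 against -0.06 for all genes, and the counts were 4 and 0 without Control replicate 2 (median 1.14). By culture, the median was 0.45 to 2.17 in 8 cultures and -0.79 in Control replicate 2.

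Further lncRNAs with large differences were LINC00342, AC159540.1 (listed as a lncRNA), ENSG00000258181 and ENSG00000270640. LINC00342 was at 2.21 to 3.63 FPKM in the 8 total, 0.559 to 0.935 in the nuclear and 0.0282 to 0.221 in the cytoplasmic/ER libraries, with no overlap between total and nuclear RNA. AC159540.1 was at 18.5 to 46.6 FPKM in total and 2.63 to 17.0 in nuclear RNA. ENSG00000270640 is an annotated single exon within the span of FOSL2 on the same strand, and its reads may not be separable from those of that gene. Its total ranged from 2.94 to 40.3 FPKM, overlapping the nuclear range of 0.888 to 6.97. ENSG00000258181 reached 1.90 FPKM at the median and its groups overlapped. LINC00342 and ENSG00000258181 had means of 1.32 and 1.285 FPKM over all libraries, and medians over 8 cultures under 1 FPKM in both fractions. They passed the minimum of 1 FPKM largely through the total libraries, which favours a place above both. SNHG1, a host gene of snoRNAs with an unstable spliced RNA, was at 381 to 554 FPKM in total RNA, 113 to 266 in nuclear and 95.3 to 190 in cytoplasmic/ER RNA, so its total libraries stood apart from both. SNHG1 in Control replicate 2 was at 174 FPKM in the library labelled total and 563 in that labelled nuclear. NORAD, a lncRNA that binds PUMILIO proteins in the cytoplasm, was above both fractions too (log2 differences 0.69 against nuclear and 1.2 against cytoplasmic/ER, limma adjusted p = 0.000496 and 0.000874).

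Among protein-coding genes, those highest above both fractions were CBWD7, ENSG00000273047, ATP2A1, GOLGA8A, BSCL2, SLC25A27, GOLGA6L4, GOLGA8B, GDPD3 and FSD1L. Several belong to families of near-identical copies (CBWD7, GOLGA6L4, GOLGA8A, GOLGA8B), among which the reads may have been split by the estimation, and their values are uncertain for that reason. BSCL2 and ENSG00000273047 overlap annotated read-through or neighbouring genes on the same strand. GOLGA8A (chromosome 15, 34671136 to 34730009, minus strand), which codes for a golgin-like protein, was at 5.09 to 14.5 FPKM in total, 1.83 to 3.62 in nuclear and 0.121 to 0.741 in cytoplasmic/ER RNA, with no overlap. The total was 3.93-fold above the nuclear level (limma adjusted p = 0.000105). GOLGA8B behaved alike, at 5.22 to 13.2 FPKM in total and 1.90 to 5.05 in nuclear RNA.

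SLC25A27 (chromosome 6, 46620652 to 46645927, plus strand), which codes for a mitochondrial carrier of the uncoupling protein family, was at 6.91 to 15.6 FPKM in total, 1.32 to 6.98 in nuclear and 0.487 to 2.43 in cytoplasmic/ER RNA. Its total level was 3.63-fold the nuclear one (limma adjusted p = 0.000328), although the lowest total library fell just below the highest nuclear one of another culture. FSD1L was low, at 1.58 to 3.40 FPKM in total and 0.521 to 1.17 in nuclear RNA, and 3.01-fold higher in total RNA (adjusted p = 0.000184). Its mean over all libraries was 1.23 FPKM, with medians over 8 cultures of 2.56 in total, 0.73 in nuclear and 0.44 in cytoplasmic/ER RNA. It thus passed the minimum of 1 FPKM largely through the total libraries, which favours a place above both fractions. BSCL2, which codes for the lipid droplet protein seipin, was at 2.47 to 17.6 FPKM in total and 1.19 to 2.12 in nuclear RNA. ATP2A1, the calcium pump of muscle sarcoplasmic reticulum, was at 2.65 to 10.7 FPKM in total and 0.183 to 4.66 in nuclear RNA. CBWD7 was above both in all 9 cultures, but its log2 difference in total RNA against the mean of the fractions ranged from 0.51 to 7.98 over cultures, and it was listed at 0 in some nuclear and cytoplasmic/ER libraries. In all, 1723 protein-coding and 425 lncRNA genes were above both fractions without Control replicate 2, and 967 and 276 of them were so in at least 8 of 9 cultures.

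Sequence from the exons of some of these RNAs and of some of the mRNAs below both fractions is shown for its base composition, which went with the difference between total RNA and the fractions. Each is the middle 100 bases of the longest annotated exon, or coding part of an exon, in GRCh37, 5′ to 3′ on the strand of the gene, with G and C in capitals. The capitals mark the bases that GC content counts. The first 4 genes were above both fractions and the last 3 below both.
FSD1L, chr9:108297424-108297523, plus strand: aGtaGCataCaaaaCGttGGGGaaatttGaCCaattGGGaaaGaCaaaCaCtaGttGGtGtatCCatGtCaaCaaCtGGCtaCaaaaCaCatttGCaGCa
SLC25A27, chr6:46623626-46623725, plus strand: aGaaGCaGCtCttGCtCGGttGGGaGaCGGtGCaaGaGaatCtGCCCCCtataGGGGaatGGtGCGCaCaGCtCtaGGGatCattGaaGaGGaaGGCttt
MIR222HG, chrX:45628520-45628619, minus strand: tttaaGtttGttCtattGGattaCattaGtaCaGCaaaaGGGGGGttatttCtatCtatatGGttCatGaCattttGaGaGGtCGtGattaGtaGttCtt
MALAT1, chr11:65270278-65270377, plus strand: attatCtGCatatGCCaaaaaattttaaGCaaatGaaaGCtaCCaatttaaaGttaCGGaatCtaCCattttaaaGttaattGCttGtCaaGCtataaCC
HSPBP1, chr19:55785828-55785927, minus strand: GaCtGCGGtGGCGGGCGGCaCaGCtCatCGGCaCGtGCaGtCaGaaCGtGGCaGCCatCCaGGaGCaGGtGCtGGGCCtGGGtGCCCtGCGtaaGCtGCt
SF3A2, chr19:2248105-2248204, plus strand: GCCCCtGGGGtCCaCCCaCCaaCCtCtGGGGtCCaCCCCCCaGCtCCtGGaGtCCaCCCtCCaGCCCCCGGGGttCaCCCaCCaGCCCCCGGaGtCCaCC
TECR, chr19:14673248-14673347, plus strand: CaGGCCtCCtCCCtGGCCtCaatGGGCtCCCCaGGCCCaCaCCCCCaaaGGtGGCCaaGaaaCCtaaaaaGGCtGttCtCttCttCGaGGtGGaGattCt

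G and C made up 29.0% of the stretch of MALAT1, 33.0% of MIR222HG and 40.0% of FSD1L, against 58% of TECR, 68.0% of HSPBP1 and 74.0% of SF3A2. The stretch of SLC25A27, at 54%, is richer than the transcripts of that gene, at 42.0%. The genes shown were picked by hand, and not all named genes followed them. Above both fractions, transcripts of ENSG00000273047 (71.4%), ATP2A1 (58.8%), BSCL2 (55.9%) and GDPD3 (54.6%) were rich in GC. The other protein-coding genes named for the largest differences above both lay under the median of all genes (49.4%). BICD2 (53.9%), named from a list, was above both and lay over that median. Of the protein-coding genes named for the largest differences below both, CHI3L2 (47.7%) and IL2RG (50.3%) were the least rich. Some genes named from lists were below both and less rich still, such as H2AZ1 (44.7%), CCNB1 (45.0%) and LDHA (45.2%).

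mRNAs of the kinases and SR proteins of splicing, many of which are known to keep introns in a pool of nuclear transcripts, were examined as a list of 13. Of these, 8 were higher in total RNA than in the mean of the fractions and 0 were lower, against 19.8% and 25.9% of all genes. The median log2 difference of the list was 0.53. When Control replicate 2 was left out, 8 were higher and 2 lower (median 0.63). The list median was then 0.14 against nuclear and 1.07 against cytoplasmic/ER RNA. Of the 13, 5 were above both fractions, against 15.6% of all genes. Against the mean of the fractions, the median was positive in each of the 9 cultures, from 0.32 in Control replicate 2 to 0.75. The value of Control replicate 2 came from libraries that went against their labels. The 4 most abundant members were unlike each other. SRSF1 was above both fractions in 8 of 9 cultures (log2 difference against the mean 0.53, standard error 0.13, limma adjusted p = 0.00991). SRSF3 (0.03, adjusted p = 0.854), SRSF2 (-0.16, adjusted p = 0.341) and SRSF7 (-0.31, adjusted p = 0.151) were not called over all cultures, and without Control replicate 2 SRSF2 (-0.27, adjusted p = 0.0371) and SRSF7 (-0.46, adjusted p = 0.0126) were lower. The members furthest up, named here after their values were seen, were NKTR (1.45, adjusted p = 0.00298), LUC7L3 (1.4, adjusted p = 0.00298), PNISR (1.27, adjusted p = 0.00298) and CLK4 (1.12, adjusted p = 0.00305). Each of these 4 was above both fractions in 8 of 9 cultures. The kinase CLK1 (0.73, adjusted p = 0.00376) was 1.70 above the cytoplasmic/ER and 0.17 above the nuclear level on the log2 scale without Control replicate 2.

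mRNAs known to be found at centrosomes were examined as a list of 8. Of 7 kept, 5 were higher in total RNA than in the mean of the fractions and 0 lower, against 19.8% and 25.9% of all genes. Their median log2 difference was 0.74, and the median of the list was 0.50 to 0.99 over the 9 cultures. In Control replicate 2 the library labelled total was most like nuclear RNA, so its value (0.52) is not like the others. Without that culture 5 were higher and 0 lower (median 0.70). The list median was then -0.01 against nuclear and 1.74 against cytoplasmic/ER RNA. Of the 7, 3 were above both fractions, against 15.6% of all genes. Single members did not all lie above the mean of the fractions, since NIN (-0.57) and CEP350 (-0.67) were below it in Control replicate 2. CEP350, which codes for a large centrosomal protein, was at 12.1 to 30.5 FPKM in total, 6.71 to 20.1 in nuclear and 0.568 to 5.43 in cytoplasmic/ER RNA over 8 cultures (log2 difference against the mean 1.31, standard error 0.23, limma adjusted p = 0.00378). NIN, which codes for ninein, a protein that anchors microtubules, was at 27.6 to 39.3 FPKM in total, 14.7 to 22.1 in nuclear and 5.04 to 18.4 in cytoplasmic/ER RNA, with no overlap (1.06, adjusted p = 0.00559). In Control replicate 2 CEP350 and NIN were at 7.20 and 20.6 FPKM in the library labelled total and at 20.9 and 46.2 in that labelled nuclear. ASPM, a protein of spindle poles, and PCNT, pericentrin, were at the nuclear level in total RNA (log2 differences of -0.06 and -0.01 from nuclear RNA, adjusted p = 0.603 and 0.950) and far above the cytoplasmic/ER level (4.01 and 2.14). BICD2 was 0.43 above the mean (adjusted p = 0.0149). HMMR (0.13, adjusted p = 0.456) and NUMA1 (-0.23, adjusted p = 0.410) were not called.

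NDUFA13 (ENSG00000186010.14, chromosome 19, 19626545 to 19639863, plus strand), a subunit of respiratory complex I, was at 129 to 290 FPKM (median 157) in 8 total libraries, at 369 to 608 (median 413) in the nuclear and at 340 to 850 (median 554) in the cytoplasmic/ER libraries. The highest total lay below the lowest of both fractions. In Control replicate 2 it was at 582 FPKM in the library labelled total, 148 in that labelled nuclear and 620 in the cytoplasmic/ER library. The total was 0.405 times the nuclear and 0.338 times the cytoplasmic/ER level (limma adjusted p = 0.000311 and 0.000538), and the log2 difference against the mean over all 9 cultures was -1.21 (standard error 0.26, adjusted p = 0.00627).

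KRT18 (chromosome 12, 53342655 to 53346690, plus strand), a keratin of simple epithelia that many cultured lines express, was at 130 to 182 FPKM in total, 212 to 502 in nuclear and 213 to 755 in cytoplasmic/ER RNA, with no overlap. HSPBP1 (chromosome 19, 55773591 to 55791749, minus strand), which codes for a cofactor of HSP70, was at 27.9 to 44.2 FPKM in total, 61.2 to 97.4 in nuclear and 61.1 to 146 in cytoplasmic/ER RNA, with no overlap either. The total of HSPBP1 was 0.445 times the nuclear level (log2 difference -1.17, standard error 0.09, limma adjusted p = 0.000105). TECR, an enzyme of fatty acid elongation (0.456 times the nuclear level), and SF3A2, a subunit of the splicing factor SF3A (0.459 times), also had 8 total libraries below all others. KRT17, another keratin, was 0.426 times the nuclear level, but its range over cultures was wide, at 12 to 74.7 FPKM in total RNA. SGF29, a subunit of the SAGA complex, was at 7.34 to 27.1 FPKM in total and 21.7 to 48.3 in nuclear RNA. Low mRNAs with the largest differences were IL2RG, the common gamma chain of cytokine receptors (0.606 to 5.32 FPKM in total and 1.93 to 16.5 in nuclear RNA), CHI3L2 (0.301 to 3.52 and 0.572 to 5.63) and TMEM40 (0.405 to 1.79 and 0.579 to 4.63), and their groups overlapped.

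**Figure D2:**
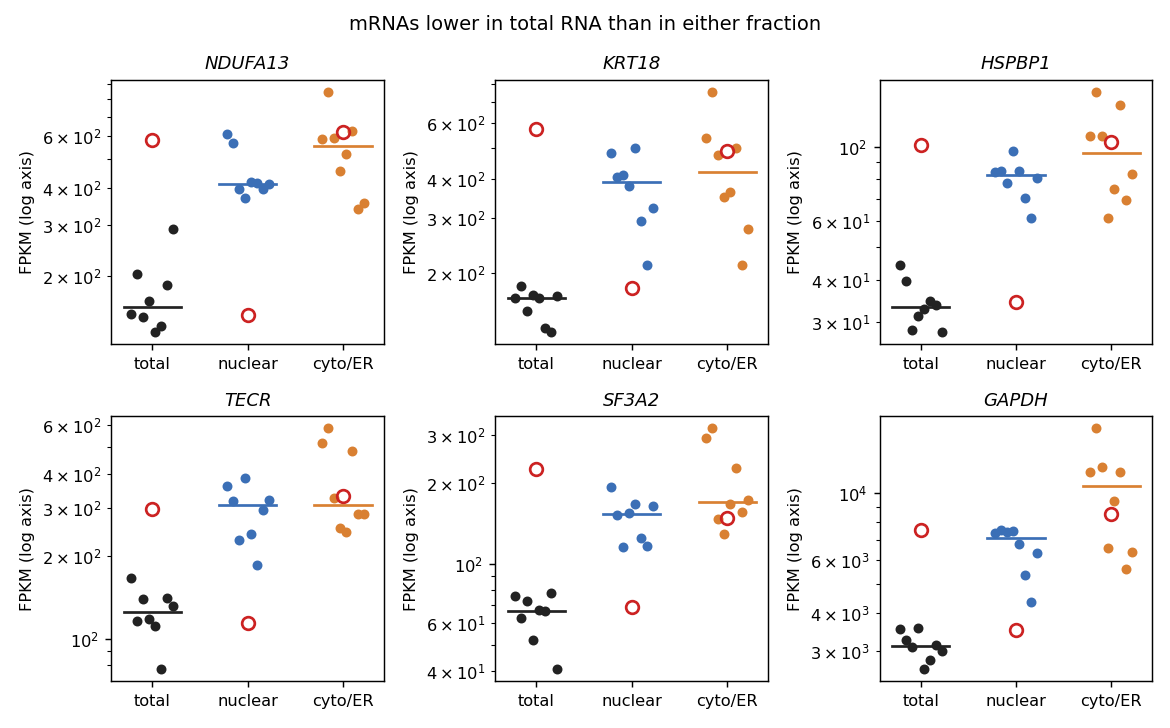
FPKM (log axis) of 6 mRNAs in the total, nuclear and cytoplasmic/ER libraries, drawn as for the RNAs above both fractions. For KRT18 the 8 total libraries (130 to 182 FPKM) lie below all nuclear (212 to 502) and cytoplasmic/ER (213 to 755) ones, and the red circles of Control replicate 2 stand the other way round for total and nuclear RNA.

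lncRNAs were rarely below both fractions. Only 27 of 1743 (1.55%) were called without Control replicate 2, and 8 of these were below both in at least 8 of 9 cultures. Of 12381 protein-coding genes 2173 (17.6%) were called, and 1364 of these were so in at least 8 of 9 cultures. The median level was 2.61 FPKM for lncRNAs and 15.3 FPKM for protein-coding genes. Genes of low level were rarely below both whatever their class, at 3.52% of the quintile with the lowest mean level. FLJ20021 (11.4 to 29.7 FPKM in total, 20.7 to 44.3 in nuclear and 28.9 to 62.4 in cytoplasmic/ER RNA), ENSG00000273184 and ENSG00000225532 were the ones at over 10 FPKM among the 6 with the largest differences. ENSG00000273184 was below both in all 9 cultures, and shares its strand and span with METTL2B and HILPDA. LINC02323 had a mean of 1.03 FPKM, ENSG00000197665 of 1.27 and ENSG00000261342 of 3 over all libraries.

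The lists of housekeeping mRNAs were low in total RNA. For these and the lists that follow, the shares of all genes were 19.8% higher and 25.9% lower. Without Control replicate 2 they were 27.2% and 34.1%, and 15.2% of all genes were below both fractions. Abundant genes of any kind were often low. In the most abundant quintile of genes, 4.55% were higher and 52.8% lower over all cultures, and 34.1% were below both without Control replicate 2. All 14 actin, tubulin and vimentin mRNAs were lower than in the mean of the fractions and all 14 were below both fractions without Control replicate 2, with a median log2 difference of -0.78 (14 lower, 0 higher and a median of -0.96 without Control replicate 2). ACTB was at 2415 to 2906 FPKM in total, 3234 to 5710 in nuclear and 4014 to 8370 in cytoplasmic/ER RNA over 8 cultures, without overlap, and was 0.582 times the nuclear level (limma adjusted p = 0.000867). TUBB was at 793 to 1306 FPKM in total and 1483 to 2647 in nuclear RNA. In Control replicate 2, ACTB was at 8760 FPKM in the library labelled total, above both others. Of 16 glycolysis enzymes 12 were lower and 1 was higher, with a median of -0.63. When Control replicate 2 was left out, 15 were lower and 1 higher (median -0.78), and 14 were below both. GAPDH was at 2617 to 3569 FPKM in total, 4365 to 7505 in nuclear and 5614 to 16350 in cytoplasmic/ER RNA (log2 difference against the mean -1.10, standard error 0.21, adjusted p = 0.00440). ENO1 (-0.89, adjusted p = 0.0152), PKM (-0.88, adjusted p = 0.0149) and LDHA (-0.61, adjusted p = 0.0169) were lower too. Median differences by culture were -1.24 to -0.46 for the actin and tubulin list and -1.16 to -0.44 for glycolysis in 8 cultures, and 0.61 and 0.72 in Control replicate 2.

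For ribosomal protein mRNAs the total lay near the nuclear level and far below the cytoplasmic/ER level. Of 85 cytosolic ribosomal protein genes, 81 were lower than the mean of the fractions and 0 higher, with a median log2 difference of -0.88. Without Control replicate 2, 81 were lower and 0 higher (median -0.90), the median difference was -0.19 from nuclear and -1.37 from cytoplasmic/ER RNA, and 25 of the 85 were below both. RPS2 was at 9394 to 15020 FPKM in total, 10790 to 14110 in nuclear and 23760 to 39690 in cytoplasmic/ER RNA, so total and nuclear RNA overlapped. RPL10 was at 4193 to 7406 FPKM in total, 5157 to 11240 in nuclear and 10370 to 23930 in cytoplasmic/ER RNA. RPLP1 (-0.75, limma adjusted p = 0.0124) and RPS19 (-1.02, adjusted p = 0.00538) were lower than the mean of the fractions as well. The median of the list was -1.62 to -0.49 in 8 cultures and 0.20 in TPR D replicate 1. TPR D replicate 1 was also the highest of the 9 cultures for mitochondrial ribosomal proteins (0.17 against -1.08 to -0.10) and respiratory chain genes (0.23 against -1.30 to -0.27), though by less than the 95% critical share of the range in Dixon's test. Without TPR D replicate 1, 3219 genes were higher and 3907 lower in total RNA.

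Of 76 mitochondrial ribosomal protein genes 52 were lower and 0 higher (median -0.56), and of 79 nuclear-encoded respiratory chain genes 71 were lower and 0 higher (median -0.69), such as COX6B1 (-0.93, limma adjusted p = 0.00718), ATP5MF (-0.90, adjusted p = 0.00545), COX7A2 (-0.70, adjusted p = 0.0138) and ATP5F1B (-0.60, adjusted p = 0.00857). MRPL52 (-1.05, adjusted p = 0.00360) and MRPL51 (-0.58, adjusted p = 0.0334) were lower, and MRPL33 (-0.48, adjusted p = 0.0548) and MRPS28 (-0.41, adjusted p = 0.0902) were not called, of which MRPS28 was lower without Control replicate 2 (-0.53, adjusted p = 0.0207). Of 36 proteasome subunits 23 were lower and 0 higher (median -0.46), with PSMD8 at -0.85 (adjusted p = 0.00339), PSMB4 at -0.65 (adjusted p = 0.0119) and PSMD2 at -0.52 (adjusted p = 0.0322), while PSMD4 was not called over all cultures (-0.44, adjusted p = 0.0852) and was lower without Control replicate 2 (-0.62, adjusted p = 0.00429). Without that culture, 57 mitochondrial ribosomal protein genes were lower and 1 higher (median -0.62), 71 respiratory chain genes were lower and 0 higher (median -0.73), and 30 proteasome subunits were lower and 0 higher (median -0.60). These 3 lists had medians of the same sign with the GC content centred over all cultures (-0.43, -0.64 and -0.42), with 47, 68 and 17 genes lower.

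Histone mRNAs were examined in a pair of lists. Of 23 replication-dependent histone genes, whose mRNAs end in a stem-loop rather than a poly(A) tail, 12 were lower and 0 higher, with a median of -0.44. H2BC12 (-0.64, limma adjusted p = 0.00468), H1-2 (-0.87, adjusted p = 0.0128), H4C3 (-0.94, adjusted p = 0.00548) and H2BC11 (-0.50, adjusted p = 0.00988) were among those lower. Of 9 genes listed as replication-independent histones, 5 were lower and 0 higher (median -0.38). These were H1-10 (-0.72), H2AX (-0.58), H2AZ1 (-0.50), MACROH2A1 (-0.40) and MACROH2A2 (-0.38), while H3-3A (-0.19), H3-3B (-0.11) and H2AZ2 (-0.01) were not called. In the 8 other cultures, 15 replication-dependent genes were lower and 1 higher (median -0.48), and 5 replication-independent genes were lower and 0 higher (median -0.46). With GC content centred, 5 replication-dependent genes were lower and 1 higher (median -0.28), and 2 replication-independent genes were lower and 0 higher (median -0.17).

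**Figure D3:**
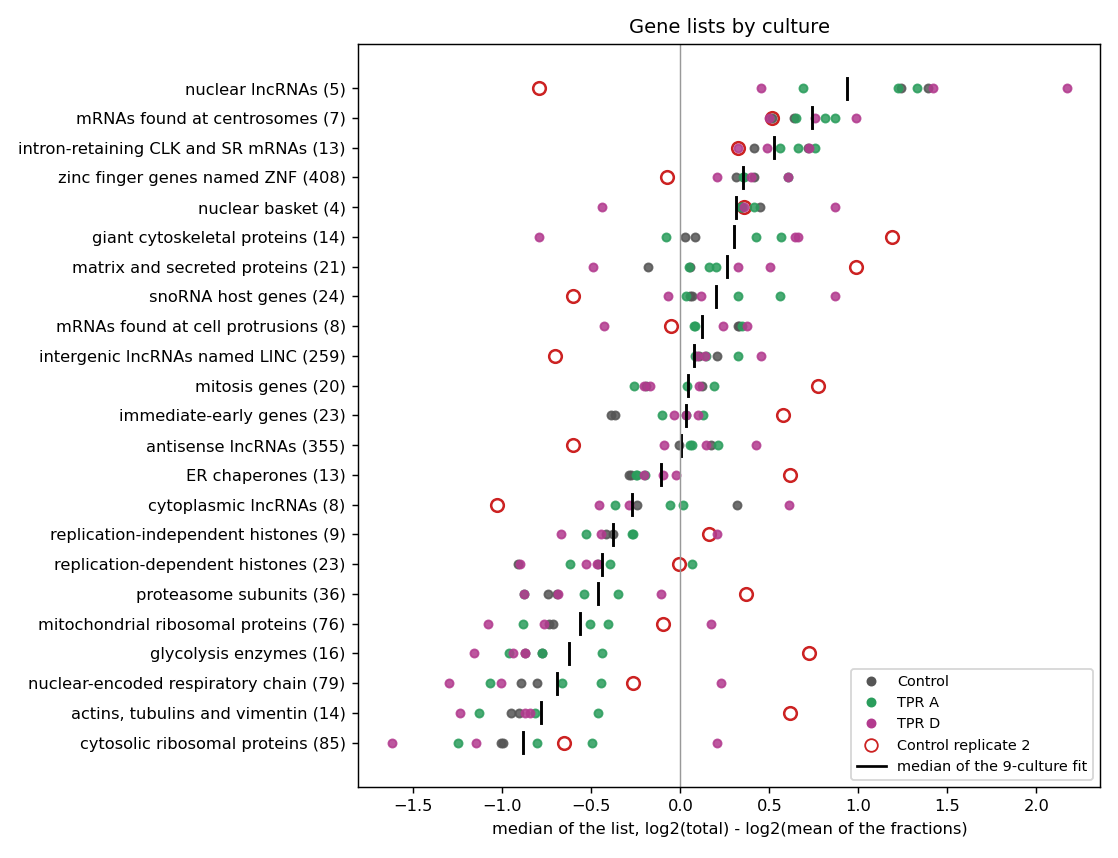
Median log2 difference, total minus mean of the fractions, of each gene list (number of genes kept in brackets) in each culture. Filled points are 8 cultures coloured by shRNA, red circles are Control replicate 2 and black bars are the medians of the fit over 9 cultures. The centrosome and the CLK and SR lists lie above 0 in all 9 cultures, and the ribosomal protein list lies below 0 in all but TPR D replicate 1.

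For mRNAs translated at the ER and those of very large cytoskeletal proteins, the median of each list lay below nuclear and above cytoplasmic/ER RNA. Of 21 genes of matrix and secreted proteins, 5 (23.8%) were higher and 2 (9.52%) lower than the mean of the fractions, with a median of 0.26. The share that was higher was near the 19.8% of all genes, and 25.9% of all genes were lower. Without Control replicate 2, 3 were higher and 6 lower (median 0.10), their median was -0.50 against nuclear and 1.58 against cytoplasmic/ER RNA, and 0 were above both. THBS1, a secreted matrix glycoprotein, was at 87.2 to 191 FPKM in total, 97.6 to 291 in nuclear and 19.6 to 73.4 in cytoplasmic/ER RNA. TIMP1, a secreted inhibitor of metalloproteinases, was an exception, below both fractions in 8 of 9 cultures (log2 difference against the mean -0.68, standard error 0.18, limma adjusted p = 0.0131). SPARC (-0.31, adjusted p = 0.108) and COL6A2 (-0.28, adjusted p = 0.248) were not called over all cultures, and both were lower without Control replicate 2 (-0.43, adjusted p = 0.0122, and -0.47, adjusted p = 0.0107). Of 13 ER chaperone genes 1 was higher and 1 lower (median -0.11), and without Control replicate 2 1 was higher and 6 lower (median -0.26). HSP90B1 was at 282 to 486 FPKM in total, 413 to 744 in nuclear and 73.3 to 235 in cytoplasmic/ER RNA. P4HB (-0.35), CALR (-0.39) and PDIA6 (-0.01) were not called over all cultures, and without Control replicate 2 P4HB (-0.45, limma adjusted p = 0.0132) and CALR (-0.52, adjusted p = 0.00480) were lower. CALR was below both fractions in 6 of 9 cultures and P4HB in 5.

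Of 14 giant cytoskeletal protein genes 6 were higher and 0 lower than the mean of the fractions (median 0.30), 6 were higher and 2 lower without Control replicate 2 (median 0.15), and none was then above or below both fractions. Their median then was -0.60 against nuclear and 2.21 against cytoplasmic/ER RNA. AHNAK was at 52.1 to 146 FPKM in total, 73.2 to 218 in nuclear and 12.2 to 31.6 in cytoplasmic/ER RNA. PLEC (0.30, limma adjusted p = 0.404), FLNA (-0.47, adjusted p = 0.210) and MYH9 (-0.11, adjusted p = 0.690) were not called over all cultures, and FLNA was lower without Control replicate 2 (-0.79, adjusted p = 0.00410). The median of the list was -0.79 in TPR D replicate 1 and 1.19 in Control replicate 2.

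Of 408 zinc finger genes named ZNF, 196 (48.0%) were higher and 41 (10.0%) lower, against 19.8% and 25.9% of all genes. Their median was 0.35, and without Control replicate 2 232 were higher and 57 lower (median 0.41). By culture the median was 0.21 to 0.61 in 8 cultures and -0.08 in Control replicate 2. Of single members, ZNF888 was 0.67 above the mean (limma adjusted p = 0.00349), while the abundant ZNF706 (-0.14), ZNF207 (-0.29) and ZNF143 (-0.15) were not called, of which ZNF207 was lower without Control replicate 2 (-0.38, adjusted p = 0.00453). Of 24 snoRNA host genes 6 were higher and 1 (4.17%) lower (median 0.20), and without Control replicate 2 7 were higher and 1 lower (median 0.25). SNHG1 led with 1.29 (adjusted p = 0.00514), and SNHG3 (0.50, adjusted p = 0.140), SNHG6 (-0.17) and SNHG29 (-0.40) were not called. Of 355 antisense lncRNAs 66 (18.6%) were higher and 40 (11.3%) lower (median 0.00), and 104 and 42 without Control replicate 2 (median 0.09), with TMEM132D-AS1 lower (-0.67, adjusted p = 0.00988) and NUTM2B-AS1, SVIL-AS1 and PRR34-AS1 not called. Of 259 lncRNAs named LINC 49 (18.9%) were higher and 27 (10.4%) lower (median 0.08), and 95 and 28 without Control replicate 2 (median 0.15). Among the abundant ones LINC00963 was lower (-0.31, adjusted p = 0.0278), and LINC03033, LINC00958 and LINC00973 were not called, of which LINC03033 was higher without Control replicate 2 (0.58, adjusted p = 0.00225).

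Of 8 lncRNAs known in the cytoplasm 1 was higher (NORAD, 0.75) and 1 lower (DANCR, -0.57, limma adjusted p = 0.0173), with a median of -0.27, and without Control replicate 2 2 were higher and 2 lower (median -0.18). GAS5, CYTOR, ZFAS1, EPB41L4A-AS1, OIP5-AS1 and H19 were not called, at -0.23, -0.36, -0.39, 0.29, 0.03 and -0.32. With Control replicate 2 left out, CYTOR was lower (-0.38, limma adjusted p = 0.0496) and OIP5-AS1 higher (0.28, adjusted p = 0.0242). Of 8 mRNAs known at cell protrusions NET1 was higher (0.42, adjusted p = 0.0497) and CYB5R3 lower (-0.62, adjusted p = 0.00436), with a median of 0.12, and RAB13, KIF1C, PKP4, DYNLL2, DDR2 and TRAK2 lay between -0.03 and 0.31. With Control replicate 2 left out, 2 of the 8 were higher and 1 lower (median 0.16), with PKP4 among the higher (0.41, limma adjusted p = 0.0136). Of 20 mitosis genes 5 (25%) were higher and 6 (30%) lower (median 0.04), near the 19.8% and 25.9% of all genes, and without Control replicate 2 4 were higher and 9 lower (median 0.01). TOP2A was higher (0.48, adjusted p = 0.0421), a call lost without Control replicate 2 (0.37, adjusted p = 0.0650), and CDC20 (-0.88, adjusted p = 0.00569), CCNB1 (-0.64, adjusted p = 0.0230) and UBE2C (-0.54, adjusted p = 0.0147) were lower. Of 23 immediate-early genes 1 was higher and 1 lower (median 0.03), and CCN1 (-0.10), IER3 (-0.20), CCN2 (-0.04) and GADD45B (-0.08) were not called. In the 8 other cultures, 1 was higher and 7 lower (median -0.09), and CCN1 (-0.29, limma adjusted p = 0.0244), IER3 (-0.38, adjusted p = 0.0362) and CCN2 (-0.22, adjusted p = 0.0391) were lower. With GC content centred over all cultures, 9 were higher and 0 lower (median 0.25).

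Base composition went with the difference more closely than any other feature of the transcripts examined. Across 14201 annotated genes, Spearman's rank correlation of the log2 difference with GC content was -0.53 (-0.56 without Control replicate 2). It was -0.56 within protein-coding genes and -0.26 within lncRNAs. In the decile of genes with the least GC (under 39.8%), 688 of 1421 genes (48.4%) were higher in total RNA and 35 lower, with a median of 0.41. In the decile with the most (over 62.0%), 71 of 1420 were higher and 728 (51.3%) lower, with a median of -0.42. By culture, the rank correlation was -0.62 to -0.26 in the 8 cultures and 0.28 in Control replicate 2. In TPR A replicate 3 it was weaker for GC content (-0.26) than for mRNA length (0.31) and mean level (-0.43). In TPR D replicate 3 it was weaker for GC content (-0.36) than for mean level (-0.42). These are correlations across genes, which are not independent replicates, and which share the libraries.

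**Figure D4:**
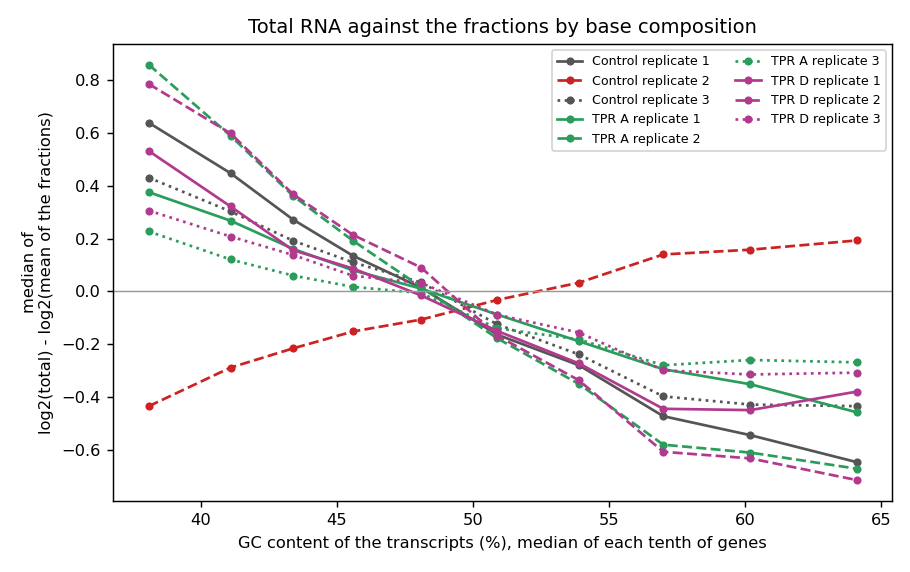
Median log2 difference, total minus mean of the fractions, by deciles of GC content (x axis, median of each decile in %) in each of the 9 cultures (1 line each). The median falls from between 0.23 and 0.86 in the lowest decile to between -0.71 and -0.27 in the highest in 8 cultures, and rises from -0.43 to 0.19 in Control replicate 2.

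Genes with long annotated mRNAs were higher in total RNA than those with short ones. Length here is the median over the annotated transcripts of a gene, which can be far from that of the mRNA expressed. It was 584 nt for AHNAK and 1414 nt for MYH9, both in the list of giant proteins. The rank correlation with mRNA length was 0.30 over all genes, 0.40 within protein-coding genes and 0.09 within lncRNAs, and 0.25 to 0.33 within each quintile of GC content. In the quintile with the longest mRNAs (over 3483 nt), 1071 of 2840 genes were higher and 206 lower. In the quintile from 818 to 1384 nt, 269 of 2841 were higher and 1113 lower. By culture, the rank correlation with mRNA length was -0.12 in TPR D replicate 1 and 0.18 to 0.34 in the other 8. Abundant genes were lower in total RNA, with a rank correlation of -0.38 with the mean level, and 1542 of the 2922 most abundant genes were lower and 133 higher. The number of exons had a rank correlation of 0.08. Of 201 protein-coding genes with a median of 1 exon, 43 were higher and 45 lower (median 0.02), and of 12180 with more exons 2286 were higher and 3489 lower (median -0.09).

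Genes above and below both fractions differed in the same features. The 2273 genes above both had a median GC content of 42.8%, an annotated mRNA length of 2386 nt and a level of 5.79 FPKM. The 2218 below both had 57.2%, 1368 nt and 38.2 FPKM. Over all genes the medians were 49.4%, 1737 nt and 12.3 FPKM. The nuclear level was above the cytoplasmic/ER level for 80.9% of the genes above both, for 30.5% of those below both and for 49.7% of all genes. Of lncRNA genes, 24.4% were above both fractions and 1.55% below, and of protein-coding genes 13.9% and 17.6%. The quintile of all genes with the lowest mean level had 23.2% above and 3.52% below both. lncRNAs and protein-coding genes were not compared at like levels. Over all 9 cultures the median difference was 0.10 for lncRNAs and -0.09 for protein-coding genes. Within quintiles of GC content the median of lncRNAs was higher than that of protein-coding genes in each quintile, with values from 0.45 against 0.34 in the lowest to -0.09 against -0.42 in the highest.

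With the median difference of each decile of GC content subtracted in each culture, which was chosen after seeing the data, 2722 genes were higher and 2364 lower in total RNA over all 9 cultures, so that 53.5% of the calls were higher, against 43.4% without the centring. These held 1913 of the 2898 and 1802 of the 3781 genes called before. Without Control replicate 2, 1649 genes were above both fractions and 1676 below both after the centring. The medians of the main lists kept their sign: 0.77 for nuclear lncRNAs, 0.65 for centrosome mRNAs, 0.42 for the CLK and SR list, -0.77 for cytosolic ribosomal proteins, -0.52 for glycolysis enzymes and -0.45 for actins, tubulins and vimentin. The counts of genes lower fell from 81 to 77 for cytosolic ribosomal proteins, 12 to 9 for glycolysis enzymes and 14 to 8 for actins, tubulins and vimentin. The counts higher stayed at 4, 5 and 8 for the nuclear lncRNA, centrosome and CLK and SR lists. The median of the mitosis genes changed sign, from 0.04 to -0.26. Whether the base composition entered through the cells, the RNA or the libraries was not tested.

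mRNAs of the mitochondrial genome, which lie inside an organelle, were left out of the fit and are given as levels. In 12 of 13, the total lay between the nuclear and the cytoplasmic/ER level in 8 of 9 cultures, with the cytoplasmic/ER level the highest. MT-CO2, a subunit of cytochrome c oxidase, was at 10600 to 14800 FPKM in total, 377 to 1260 in nuclear and 41200 to 63500 in cytoplasmic/ER RNA in 8 cultures. Its log2 difference against the mean of the fractions was -0.94 ± 0.29 (SD, n = 8) in those cultures and -6.32 in Control replicate 2. MT-ATP6 (-0.62 ± 0.27), MT-CO1 (-0.53 ± 0.33) and MT-CYB (-0.74 ± 0.37) were alike.

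MT-ND6 was the exception. It is the mRNA of the set that is copied from the other strand of the mitochondrial genome (14149 to 14673, minus strand), and it is known to lack a poly(A) tail. Its level was 239 to 375 FPKM in total, 73.6 to 148 in nuclear and 161 to 480 in cytoplasmic/ER RNA, and the total was above both in 7 of 9 cultures. The log2 difference of MT-ND6 was 0.81 and 1.30 in Control replicates 1 and 3, -0.31, 0.995 and 1.30 in TPR A replicates 1 to 3, and 0.61, 1.07 and 1.35 in TPR D replicates 1 to 3. It was -1.38 in Control replicate 2.

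**Figure D5:**
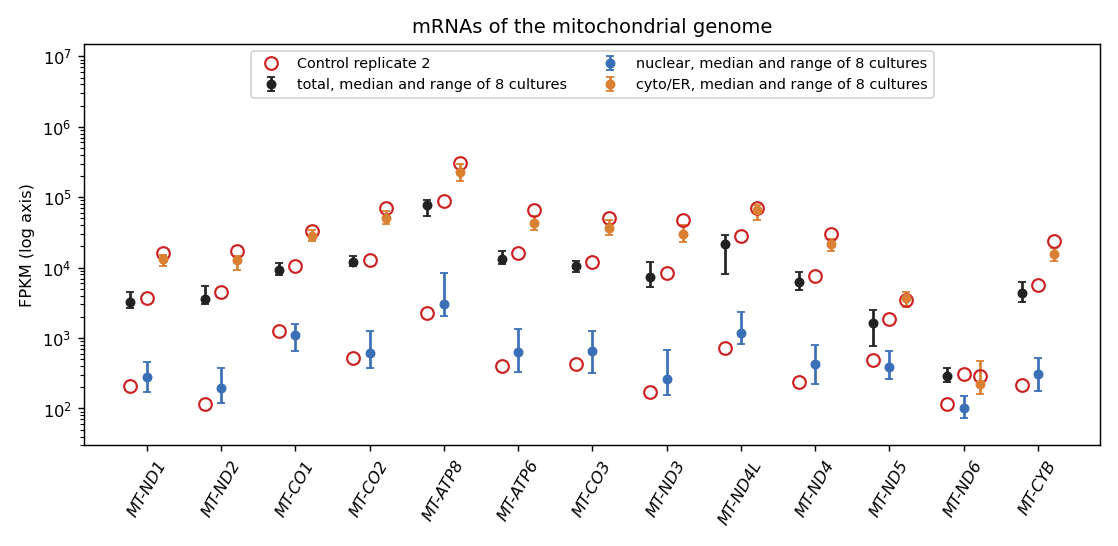
FPKM (log axis) of the 13 mRNAs of the mitochondrial genome, in their order on it. Points and bars are the median and range over 8 cultures of total, nuclear and cytoplasmic/ER RNA, and red circles are the libraries of Control replicate 2. For MT-CO2 total RNA (10600 to 14800 FPKM) lies between the fractions, while for MT-ND6 the median total (291 FPKM) is above the median of both.

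The last comparison asked whether the difference between total RNA and the fractions changed with TPR depletion. No gene was called for TPR A and TPR D together against Control (limma, adjusted p under 0.05, 0.0% of 14611), and 328 genes had an unadjusted p under 0.05, which is 2.25% of all. The lowest adjusted p was 0.908. No gene was called for TPR A or for TPR D alone against Control, and none without Control replicate 2 (220 genes at an unadjusted p under 0.05, lowest adjusted p 0.125). The standard error of the change had a median of 0.31 over genes with all cultures and 0.28 without Control replicate 2, so small changes were not detectable with these cultures. Within shRNAs and over all cultures, 0 genes differed from the mean of the fractions in Control (2192 at an unadjusted p under 0.05), 1 was higher and 0 lower in TPR A (ENSG00000242375), and 296 were higher and 189 lower in TPR D. Without Control replicate 2, 897 genes were higher and 1193 lower in Control, 1923 and 2169 in TPR A, and 2232 and 2819 in TPR D. The differences between these counts were not tested.

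TPR itself, the target, was among the genes higher in total RNA. Its log2 difference was 0.91, 0.52 and 0.65 in Control replicates 1 to 3, 1.59, 1.91 and 1.66 with TPR A and 0.88, 2.28 and 1.94 with TPR D. The Control values overlapped those of TPR D and lay below those of TPR A. The change with both shRNAs was 1.01 (standard error 0.31, limma unadjusted p = 0.00764, adjusted p = 0.908). In FPKM, TPR in the nuclear libraries was at 28.1 to 31.9 in Control, 1.64 to 2.40 with TPR A and 1.71 to 3.15 with TPR D, against 25.3 to 28.2, 3.44 to 4.70 and 3.23 to 6.01 in total RNA. The total was thus above the nuclear level in the TPR A cultures and in TPR D replicates 2 and 3. It was nearly equal in TPR D replicate 1 (3.23 against 3.15) and in Control replicate 1 (28.2 against 28.1). It was below in Control replicate 3 (25.3 against 29.8). Control replicate 2 also had it below (25.7 against 31.9), but those libraries went against their labels. Of the 4 nuclear basket genes, 1 was higher and 1 lower (median 0.31), and 2 and 1 without Control replicate 2 (median 0.34). The other genes of the nuclear basket were at 0.37 for NUP50 (adjusted p = 0.0801, and 0.47 with adjusted p = 0.0220 without Control replicate 2), 0.25 for NUP153 (adjusted p = 0.111) and -0.34 for ZC3HC1 (adjusted p = 0.0231) against the mean of the fractions.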

How the data were processed

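The authors reserved part of each culture as total RNA, lysed the remainder with detergent and sequenced poly(A)+ RNA. Per the labels and the study's methods, reads were quantified with Salmon on Gencode transcripts of an earlier release (hg19) and summed to genes, and the authors deposited FPKM, fragment counts corrected for transcript length and library depth, of 34464 genes. DESeq2, which the submitters' processing notes also name, was not run here, since counts were not used here. Classes, lengths and GC content came from GENCODE release 44 on GRCh37 (32776 of 34464 IDs matched). Lengths, exon numbers and GC content are medians over the annotated transcripts of a gene, short ones included, and not those of the expressed transcript.

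Each library was scaled by its median ratio to the geometric mean of all (factors 0.954 to 1.06) over genes with a mean above 1, 0.1 was added and log2 taken. Fold differences are on that scale and understate those of low genes. The minimum was set on the mean of all libraries, so a low gene could pass it through the kind of library where it was high. The total minus the mean of the fractions, and total minus each fraction, were formed within each culture and fitted with limma 3.58.1 in R 4.3.3 (shRNA as factor, eBayes with trend, Benjamini-Hochberg, threshold 0.05). The mean difference gives each shRNA equal weight, also without Control replicate 2. The step was tested on simulated data. Python 3.11.15, pandas 2.3.3, scipy 1.17.1 and matplotlib 3.10.9 made the summaries. The spacing of low values in genes with 1 transcript gave the worth of 1 read and so the depth (88.8% to 91.6% of values lay within 0.1 of a whole read, over steps of 1 to 5 reads), and limits precision for low genes.

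Named genes were the 10 protein-coding and 6 lncRNA genes with the largest smaller difference from both fractions (in at least 8 of 9 cultures), the most abundant members of each list (all members of lists of up to 10), TPR and the markers. Since no gene passed against both fractions in all 9 cultures, the rule was applied without Control replicate 2. The comparison, lists and rules were chosen with earlier results of these data known. One of the 25 lists, small structural RNAs, had no gene above 1 FPKM. The 3 libraries of a culture were tied by the shRNA and replicate number of the labels. Deviations of total libraries from their group means correlated with those of their fractions at -0.432 (Control replicate 2, nuclear) to 0.450. The fit without this tie, which also took the geometric mean of the fractions, is among the alternatives. Cultures are replicates as labelled, and p-values measure the spread between them. Alternatives were other pseudocounts, filters, centring, means of the fractions, sets of cultures with labels of the same form, blocks and each culture left out. Some named items are not reported here.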

Additional observations from a re-analysis of the deposited data

Results flagged for a closer look

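In 37 of 76 sets of 9 cultures examined, the highest or lowest culture stood apart from the nearest of the others by more than the 95% critical share of the range (Dixon's test). Chance flags about 1 in 20 such sets. In 35 of the 37 the culture that stood apart was Control replicate 2, and in the other 2 it was TPR D replicate 1. The named genes were chosen from the fit without Control replicate 2 for lying on 1 side in most cultures, which favours that culture standing apart in them, so the rate by chance does not apply to those sets. The sets share their cultures and libraries, so they are not independent.

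In Control replicate 2 the correlation across genes (Spearman's rank correlation) of the difference between total RNA and the mean of the fractions was 0.278 with GC content and 0.123 with level, and in TPR D replicate 1 it was -0.12 with mRNA length. Among list medians on the log2 scale, Control replicate 2 stood at 0.617 for ER chaperones, 0.614 for actins, tubulins and vimentin, 0.724 for glycolysis enzymes, 0.772 for mitosis genes, -0.603 for antisense lncRNAs and -0.702 for lncRNAs named LINC. TPR D replicate 1 stood at -0.439 for the nuclear basket genes.

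Among genes above both fractions elsewhere, the log2 difference in Control replicate 2 was -2.69 for ATP2A1, -1.24 for GOLGA8A, -2.59 for BSCL2, -0.674 for SLC25A27, -0.0381 for GOLGA6L4, -1.07 for GOLGA8B and -1.94 for FSD1L. For lncRNAs it was -1.61 for MIR222HG, -1.57 for MALAT1, -3.12 for AC159540.1, -1.45 for LINC00342 and -1.60 for ENSG00000270640. Among genes below both elsewhere it was 0.522 for HSPBP1, 0.745 for KRT18, 0.383 for TECR and 1.01 for SF3A2.

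For mRNAs of the mitochondrial genome, the log2 difference in Control replicate 2 was -6.32 for MT-CO2, -6.10 for MT-CYB, -6.59 for MT-ND2, -4.11 for MT-CO1, -7.36 for MT-ND3, -6.34 for MT-ND4, -5.62 for MT-ND1, -6.68 for MT-ATP6, -6.22 for MT-CO3, -6.14 for MT-ND4L and -6.49 for MT-ATP8. MT-ND5 and MT-ND6 were not among those that stood apart.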

How the results depend on the processing

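The counts of genes higher and lower in total RNA than in the mean of the fractions (2898 and 3781 with all cultures) stayed within 1.5 times under unscaled FPKM, a minimum of 5 FPKM or none, pseudocounts of 0.01 and 1, the geometric mean, no trend, the unpaired fit of all libraries and the replicate block (2365 and 3190). The unpaired fit also took the geometric mean of the fractions in place of the plain mean. As deposited, 35.9% of calls were higher, with the median of all genes at -0.12, against 43.4% and -0.06. With a weight fitted to each culture in place of the plain mean the counts were 1607 and 1959, within replicate 1 cultures, fitted as 1 group of 3, 305 and 59, within replicates 2 and 3 1772 and 2260, and with GC content centred 2722 and 2364. Leaving out 1 culture gave 1823 to 3974 higher and 2498 to 4984 lower. The counts fell by over 1.5 times without Control replicate 1 (1873 and 2501) and without TPR A replicate 2 (1823 and 2498). Of genes above and below both fractions (0 and 0), there were 2 and 1 with no minimum (ENSG00000227161, ENSG00000242375 and GLIPR1), 1 above with no trend (ENSG00000242375), 1 above within replicate 1 (UST-AS2), 656 and 701 in the unpaired fit, 1649 and 1676 with GC content centred without Control replicate 2, and 0 to 2273 and 0 to 2218 when 1 culture was left out. The 1 gene above both without TPR A replicate 1 was ENSG00000268632. In the unpaired fit, 645 of the 656 and 695 of the 701 were also called without Control replicate 2. The change with both TPR shRNAs together was called for 1 gene with no minimum (ENSG00000227161) and 1 within replicates 2 and 3 (MIR600HG), and for 0 when any 1 culture was left out. Calls for 1 shRNA alone against Control included ENSG00000269363 for TPR D without TPR A replicate 3 (-7.49, limma adjusted p = 0.0017). For TPR A they included ENSG00000242375 with no trend and with the fitted weight, and ENSG00000227161 with no minimum. The replicate block gave 0 genes above and 0 below both fractions. Same-numbered cultures of different shRNAs share only a number in the labels, and their deviations correlated at -0.337 to 0.385.

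Over named genes and alternatives, 2994 values kept their side of the threshold, 270 lost it, 95 gained it and 2 reversed, TOP2A with GC content centred without Control replicate 2 (-0.15) and LINC00963 with the fitted weight (0.00735). Of the list medians 521 moved by less than their spread over cultures and 8 by more. The causes were not tested. Depth limits low genes, since 1 read on 1 kb was worth 0.01145 to 0.03185 FPKM.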
